A study of Mus musculus with 2 samples.

Results

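The genes that make, sense and remove prostaglandin E2 (PGE2) were examined in 4T1 cells, a mouse mammary carcinoma line that metastasizes to the lung. The 10 genes were chosen by name as the COX-2/PGE2 axis: the cyclooxygenases Ptgs1 and Ptgs2, the PGE synthases Ptges, Ptges2 and Ptges3, the receptors Ptger1, Ptger2, Ptger3 and Ptger4, and the inactivating enzyme Hpgd. All 10 were among the 21911 genes listed. RNA was sequenced in 2 libraries, 1 from 4T1 cells kept for 48 h with PBS and 1 from 4T1 cells kept for 48 h with potassium oxalate, with no other treatment or genetic change stated. The dose is 20 µM in the treatment field of the labels and 20 mM in their protocol field. The study's methods state 20 µM for the sequenced cells. Neither library has a replicate, so no difference between the conditions could be tested, and every difference below is one between 2 libraries. The values are FPKM, in which the fragments of a gene are divided by transcript length and by library size, so that levels of different genes compare per length.

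PGE2 is a lipid made from arachidonic acid, which phospholipases free from membranes. Cyclooxygenases turn arachidonic acid into PGH2, PGE synthases turn PGH2 into PGE2, and the EP receptors carry the signal of PGE2 into the cell through G proteins. COX-2, the product of Ptgs2, is the inducible cyclooxygenase and is known in mammary carcinoma for its part in inflammation and metastasis. The study measured Cox2 mRNA by qPCR in mouse lung as one of its pro-inflammatory factors, and the libraries described here come from the tumor cells themselves.

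The sequences that mark Ptgs2 are shown here because this gene had the highest level of the axis. The qPCR primers that the study used for Cox2 matched 1 annotated gene, Ptgs2, without a mismatch, and lie in exons 7 (chr1:150104078-150104099) and 8 (chr1:150104296-150104318) of its 10-exon transcript on GRCm38, giving a product of 74 bases from the mRNA.
Cox2-F: tgagcaactattccaaaccagc
Cox2-R: gcacgtagtcttcgatcactatc
Promoters were taken from RefSeq (GRCm38.p6), which held 9 of the 10 genes and not Ptger1. The motifs searched on both strands, from 250 bases before to 50 bases after each start, were the TATA box TATAAA, the CRE half-site CGTCA (the cAMP response element), the E-box CACGTG and the AP-1 site TGACTCA. The 250 bases before the start of Ptgs2 (chr1:150099781-150100030, plus strand) held none of these letters.
Ptgs2, before the start: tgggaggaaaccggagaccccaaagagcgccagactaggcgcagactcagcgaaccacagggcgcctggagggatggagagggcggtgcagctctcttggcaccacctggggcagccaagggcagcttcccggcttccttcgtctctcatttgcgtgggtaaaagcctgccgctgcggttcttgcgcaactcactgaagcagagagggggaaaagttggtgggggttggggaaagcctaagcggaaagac
The first 30 bases from the annotated start held a motif in 3 genes, and capitals mark it: in Ptgs2 (chr1:150100031-150100060) a CRE half-site that shares bases with an E-box, in Ptges3 (chr10:128058982-128059011) a CRE half-site, and in Hpgd (chr8:56294552-56294581) a TATA box.
Ptgs2, from the start: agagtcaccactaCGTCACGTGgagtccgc
Ptges3, from the start: gcattttgctgCGTCAccagccgccgcccg
Hpgd, from the start: gggcTATAAAagctgctgcggcgtccagac
The TATA box of Hpgd ends 24 bases before the gene start that GENCODE M21 gives. Ptges2 also held an E-box, and the AP-1 site was in 0 of the 9 windows. Of all 32851 RefSeq windows of this length, 20.8% held the CRE half-site, 13.6% the TATA box, 7.15% the E-box and 5.20% the AP-1 site. These matches describe letters and not bound sites.

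The label of the cells was checked against markers. All 7 epithelial markers were above 125 FPKM in both libraries, led by Krt7, and their summed level was 2232 FPKM under PBS and 2307 under oxalate. The 5 endothelial markers summed to 0.08 and 0.11 FPKM. Of the 7 leukocyte markers 6, with Ptprc among them, were listed at 0 in both libraries, and Csf1r was at 4.93 and 5.18 FPKM. Of the 6 fibroblast markers, Col1a1 alone was above 1 FPKM, at 143.48 and 144.61, and Lum was listed at 0. The depth, estimated from the steps of low values, was about 56800000 reads under PBS and 36500000 under oxalate.

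The PGE2 axis of 4T1 cells was lopsided. Both cyclooxygenases and the PGE synthase Ptges3 were abundant, whereas the inducible PGE synthase Ptges was low, and Ptger2, Ptger3 and Hpgd were listed at 0 in both libraries. Of the 10 genes, 4 averaged 1 FPKM or more, 3 were lower but above 0, and 3 were at 0. No member differed 2-fold between the libraries, where 0.653% of the 10267 genes averaging 1 FPKM or more over the libraries did. On the scale log2((oxalate + 1)/(PBS + 1)), which understates the difference of low genes, 4 members were higher and 3 lower under oxalate. Over the 4 genes that passed this filter the median was 0.0080, against 0.0031 over all 10267 genes.

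**Figure D1:**
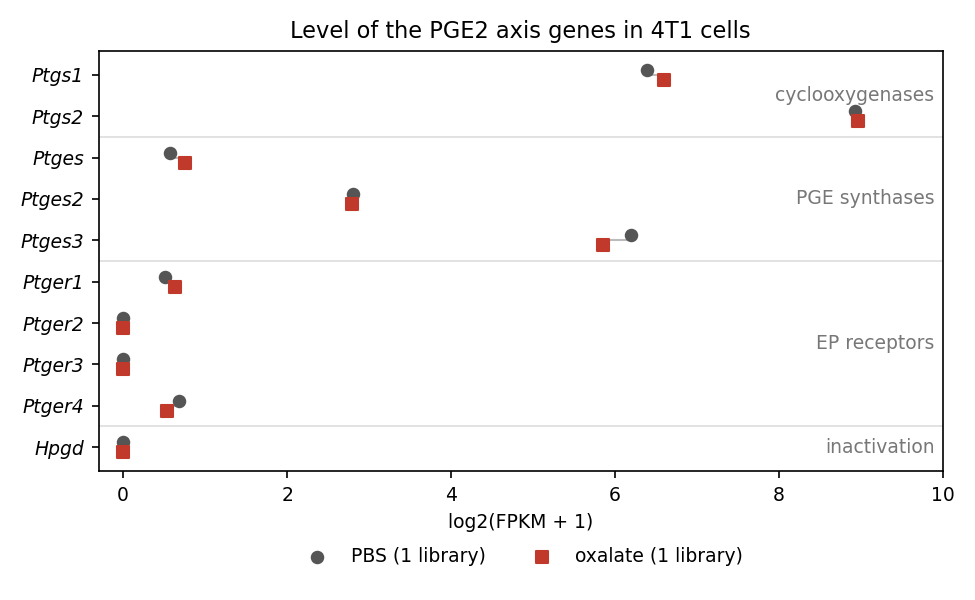
Level of each PGE2 axis gene as log2(FPKM + 1) on the horizontal axis, with 1 point for the PBS library (circle) and 1 for the oxalate library (square). Ptgs2 lies farthest to the right at 485.92 and 497.06 FPKM, and Ptger2, Ptger3 and Hpgd lie at 0 in both libraries.

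Ptgs2 (ENSMUSG00000032487, chr1:150100031-150108227 in GENCODE M21 on GRCm38), which encodes COX-2, was at 485.92 FPKM under PBS and 497.06 FPKM under oxalate. These levels ranked 134th and 123rd among the 21911 genes, so that Ptgs2 stood above 99.4% of them in each library. The log2 fold change was 0.033, and 79.6% of the 10267 genes lay at least as far from 0. For the plain ratio of the libraries, the exact (Clopper-Pearson) 95% interval from estimated reads ran from 0.015 to 0.050 on the log2 scale. Such intervals cover counting error only and say nothing of the spread between cultures.

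Ptgs1 (ENSMUSG00000047250, chr2:36230426-36252272), which encodes the cyclooxygenase COX-1 that many tissues make without a stimulus, was at 83.17 FPKM under PBS and 96.13 FPKM under oxalate. Its log2 fold change was 0.21, with a counting interval of the ratio from 0.17 to 0.25. Of the 10267 genes, 15.9% lay at least as far from 0 in either direction. The level of Ptgs2 was 5.84 times that of Ptgs1 in the PBS library and 5.17 times in the oxalate library. Ptgs2 has a long coding transcript of 4.45 kb and a short one of 0.358 kb, so its level depends on the length used. If the deposited values were divided by the mean of both lengths, the long transcript alone would give 3.16 and 2.79 times the level of Ptgs1, and COX-2 remained the more abundant cyclooxygenase mRNA in both libraries.

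The PGE synthases spanned a wide range. Ptges3 (ENSMUSG00000071072, chr10:128058954-128077272), whose product p23 is also a cochaperone of HSP90, was at 72.12 FPKM under PBS and 56.76 FPKM under oxalate, which is a log2 fold change of -0.34. On the scale with a pseudocount this was the largest difference among the members, with a counting interval of the ratio from -0.40 to -0.29. On that scale it was also the only member lowered at least 1.2-fold, as were 5.19% of the 10267 genes, and 0 members were raised at least 1.2-fold, against 4.75% of these genes. The processed pseudogene Ptges3-ps holds 22.1% of the 50-base words of the longer Ptges3 mRNA and Gm11893 holds 5.54%. Reads of the gene and of these copies could have been split, so the value of Ptges3 is uncertain.

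Ptges2 (ENSMUSG00000026820, chr2:32395896-32405772), the gene of the membrane-associated PGE synthase mPGES-2, was at 6 FPKM under PBS and 5.92 FPKM under oxalate. Its log2 fold change was -0.017, and the counting interval of the ratio, from -0.13 to 0.092, spanned 0. Ptges (ENSMUSG00000050737, chr2:30889471-30929863) encodes mPGES-1, the inducible synthase that is known to work with COX-2. It was at 0.48 FPKM under PBS and 0.68 FPKM under oxalate, from an estimated 99 and 91 reads. The plain ratio was 1.42-fold and its counting interval ran from 0.089 to 0.94 on the log2 scale, which leaves out 0 at a low level. Ptgs2 exceeded Ptges 1012-fold in the PBS library and 731-fold in the oxalate library, both as deposited FPKM. These ratios also depend on the length used for Ptgs2 and on the low values of Ptges. If the deposited values were divided by the mean of both Ptgs2 lengths, the long transcript alone would give lower ratios. Ptgs2 would then be at 262.49 FPKM under PBS and 268.51 under oxalate.

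**Figure D2:**
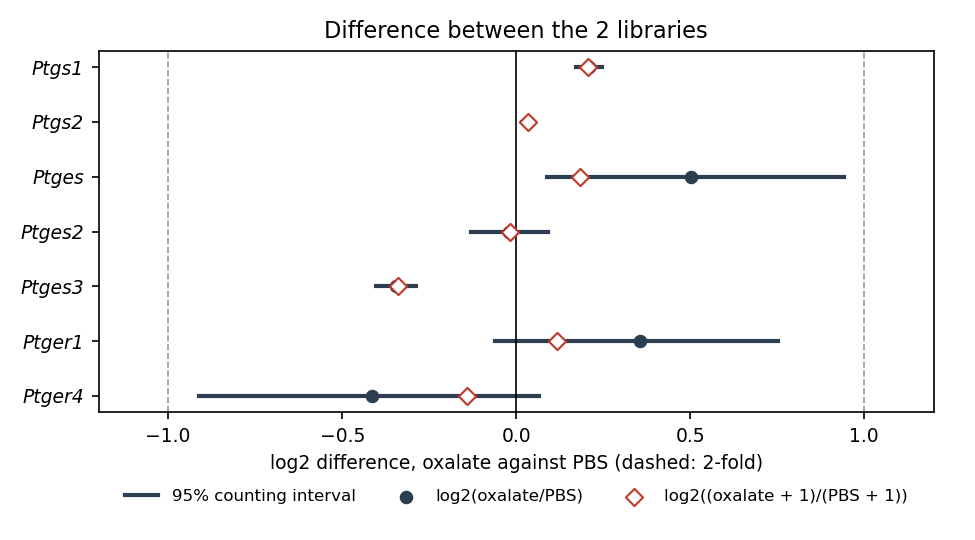
Difference between the oxalate and PBS libraries on a log2 scale for the 7 PGE2 axis genes above 0, as the plain ratio (filled circle) with its 95% counting interval (bar) and as the fold change with a pseudocount of 1 (open diamond). Ptges3 lies at -0.34 and Ptgs1 at 0.21 with narrow bars, and the bars of Ptges2, Ptger1 and Ptger4 cross 0.

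Among the EP receptors, Ptger4 and Ptger1 gave the only values above 0. Ptger4 (ENSMUSG00000039942, chr15:5206661-5244187), the gene of EP4, which raises cAMP, was at 0.60 FPKM under PBS and 0.45 FPKM under oxalate. The counting interval of its log2 ratio ran from -0.91 to 0.066, so at this depth no difference could be detected, although reads estimated from the longer exon-union length gave -0.76 to -0.078. Ptger1 (ENSMUSG00000019464, chr8:83666678-83672753), the gene of the calcium-linked receptor EP1, was at 0.43 FPKM under PBS and 0.55 FPKM under oxalate. Its interval ran from -0.062 to 0.75.

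The protocol names no step that keeps the strand, so reads from the 2 strands of a locus cannot be told apart, and the values of Ptger1 and Ptger4 are uncertain. For Ptger4, 1.23% of the exon bases are shared with Ttc33, which was at 9.06 and 9.50 FPKM, and 15.3% with the pseudogene Gm15937. Other annotated genes that overlap a member are Gm43621 at Ptgs1, Gm13400 at Ptges, Gm49364 and Gm17173 at Ptger2 and Gm45540 at Hpgd, each sharing under 5% of the exon bases of that member. In the PBS library the counting intervals of Ptger4 (0.494 to 0.722 FPKM), Ptges (0.389 to 0.582) and Ptger1 (0.356 to 0.518) overlapped in order of level. In the oxalate library the order was Ptges, Ptger1 and Ptger4, and neighbours again overlapped.

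Ptger2 (ENSMUSG00000037759, chr14:44988195-45003820), the gene of the second cAMP-raising receptor EP2, was listed at 0 in both libraries. Ptger3 (ENSMUSG00000040016, chr3:157566892-157645888), the gene of EP3, which lowers cAMP, was listed at 0 as well. At the estimated depths, 3 reads would have given Ptger2 0.0143 FPKM under PBS and 0.0223 under oxalate, and Ptger3 0.0201 and 0.0314 FPKM. Hpgd (ENSMUSG00000031613, chr8:56294585-56321043) encodes 15-hydroxyprostaglandin dehydrogenase, the enzyme that starts the inactivation of PGE2. It too was listed at 0 in both libraries, with 3 reads worth 0.0314 FPKM under PBS and 0.0488 under oxalate. In bulk RNA, fewer cells that express a gene and less RNA per cell cannot be told apart.

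**Figure D3:**
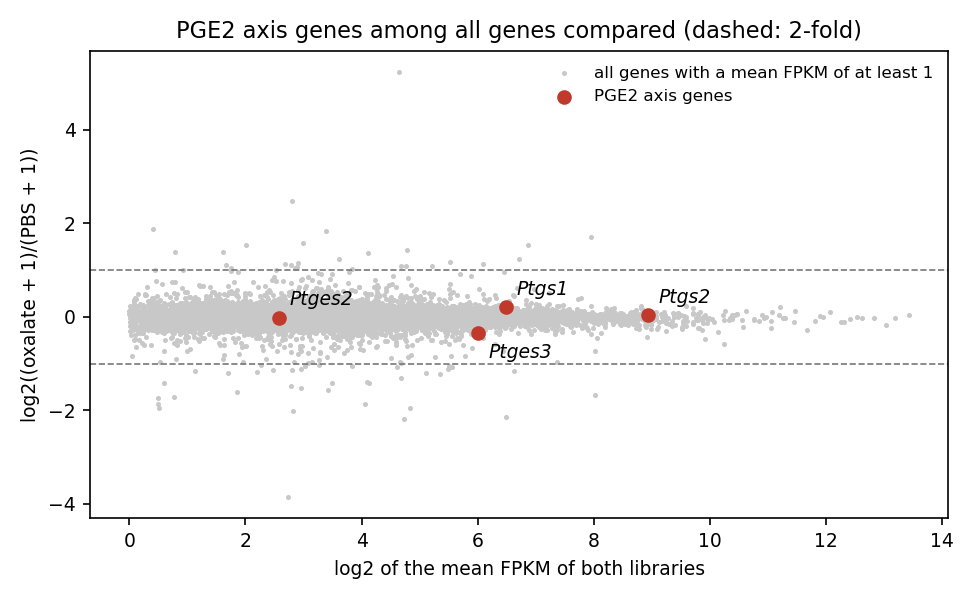
Log2 fold change with a pseudocount of 1 (vertical axis) against log2 of the mean FPKM (horizontal axis) for the 10267 genes that averaged 1 FPKM or more (gray), with the 4 PGE2 axis genes that passed this filter in red. All 4 lie between the dashed 2-fold lines, from -0.34 for Ptges3 to 0.21 for Ptgs1.

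The rest of the pathway was read from 10 lists with 130 genes, of which 77 averaged 1 FPKM or more. None of the 77 differed 2-fold or 1.5-fold, against 0.653% and 1.99% of all genes compared. At 1.2-fold 3 were raised and 2 lowered, and 9.94% of all genes compared passed this threshold in either direction. Of the 77 genes, 31 were higher and 46 lower under oxalate, with a median of -0.015. The 46 include all 10 genes of the list of HSP90 chaperones and cochaperones. Of all 10267 genes compared, 5198 were higher and 5033 lower under oxalate, with a median of 0.0031.

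Upstream of the cyclooxygenases, Pla2g4a, the cytosolic phospholipase that frees arachidonic acid, led its list at 59.46 FPKM under PBS and 59.53 under oxalate. Pla2g4a is the neighbour of Ptgs2 on chromosome 1, with a gap of 138.74 kb and 0 coding genes between them. Of 20 genes for arachidonate release 5 passed this filter, 3 with a higher and 2 with a lower value under oxalate. Mboat7, an acyltransferase that puts arachidonate back into phosphatidylinositol, was at 97.26 and 95.19 FPKM and led the 4 genes of reacylation.

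The branches beside PGE2 were mostly low. Of 7 synthases of other prostanoids 2 passed the filter, and Akr1b3, an aldose reductase that can also make PGF2α, was at 306.46 FPKM under PBS and 328.85 under oxalate. Of 6 genes for receptors of other prostanoids only Ptgfrn, which encodes an inhibitor of the PGF2α receptor, passed, at 63.55 and 65.22 FPKM. All 5 genes of transport and inactivation passed. The prostaglandin transporter Slco2a1 was highest among them at 33.70 and 38.71 FPKM, a log2 fold change of 0.20, while the dehydrogenase Hpgd, which acts after uptake, was at 0. In the lipoxygenase and leukotriene branch 4 of 18 genes passed, led by the leukotriene A4 hydrolase Lta4h at 31.75 and 32.29 FPKM.

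**Figure D4:**
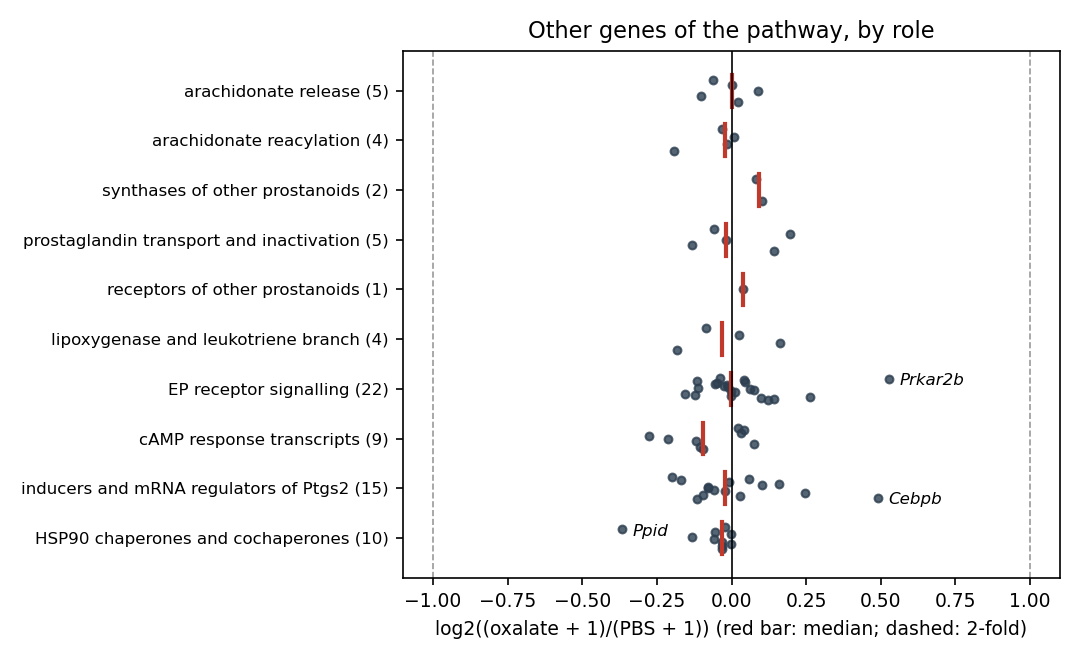
Log2 fold change with a pseudocount of 1 (horizontal axis) for the genes averaging 1 FPKM or more in each list of the pathway, with their number in brackets, 1 point per gene and the list median as a red bar. All points lie between the dashed 2-fold lines, with Prkar2b (0.53), Cebpb (0.49) and Ppid (-0.37) farthest out.

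Downstream of the EP receptors, 22 of 32 signalling genes passed the filter, 10 higher and 12 lower under oxalate, with a median of -0.001. Gnai2, an inhibitory G protein subunit, was highest at 579.94 FPKM under PBS and 536.05 under oxalate. Prkar2b, a regulatory subunit of the cAMP-dependent kinase, was at 15.66 and 23.04 FPKM, a log2 fold change of 0.53 that 2.39% of all genes compared reached or passed in either direction. Of 10 transcripts known to follow cAMP 9 passed, 4 higher and 5 lower, with a median of -0.096. The growth factor gene Areg was highest of these at 26.16 and 24.41 FPKM.

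Of 18 genes listed as inducers and mRNA regulators of Ptgs2, 15 passed the filter, 6 higher and 9 lower under oxalate, with a median of -0.021. S100a10, whose product binds annexin A2, was highest in the list at 672.13 FPKM under PBS and 668.22 under oxalate. Any effect of S100a10 on Ptgs2 was not tested. Cebpb, which encodes a transcription factor known to act on the Ptgs2 promoter, was at 56.74 and 80.21 FPKM, a log2 fold change of 0.49 with a counting interval of the ratio from 0.44 to 0.56. Of all genes compared, 2.76% lay at least as far from 0. Ptgs2 itself differed by 0.033, and any link between Cebpb and Ptgs2 in these cells was not tested. Cebpb, Prkar2b and Ppid were singled out after their values were seen.

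The cytokines that the study measured by qPCR beside Cox2 in lung were low in these cells. Il1b was at 0.16 FPKM under PBS and 0.47 under oxalate, an estimated 12 and 23 reads, with a counting interval of the log2 ratio from 0.51 to 2.72. Tnf was at 0.07 and 0.25 FPKM, an estimated 6 and 14 reads, with an interval from 0.39 to 3.53. Il6 was at 0.07 and 0.11 FPKM, from an estimated 5 reads in each library, and its interval of -1.48 to 2.76 spans 0. All 3 were nominally higher under oxalate at very few reads. Of 1599 genes averaging 0.1 to under 1 FPKM, 11.1% were at least 2-fold higher by the plain ratio and 11.1% at least 2-fold lower. Il1b and Tnf averaged 0.315 and 0.16 FPKM, in the lower part of this window, and Il6 at 0.09 lay below it. The share for genes at their own levels was not computed. Il1a, the gene of the related cytokine IL-1α, was at 115.39 FPKM under PBS and 113.70 under oxalate.

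The chaperones that work with p23, the product of Ptges3, were all expressed. All 10 genes of this list passed the filter and all 10 were nominally lower under oxalate. Their log2 fold changes ran from -0.37 for Ppid to -0.00066 for Hsp90ab1, with a median of -0.031. The counting interval of the ratio spanned 0 for some of them, with Hsp90ab1 at -0.0084 to 0.0070. It lay below 0 for others, with Ppid at -0.43 to -0.32. Of all genes compared, 5033 of 10267 were lower under oxalate. Hsp90ab1, which encodes HSP90β, was highest at 5923 FPKM under PBS and 5920 under oxalate. Ppid, which encodes the cochaperone cyclophilin 40, was at 77.34 and 59.76 FPKM, and Ptges3 at 72.12 and 56.76.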

How the data were processed

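Messenger RNA of 4T1 cells was isolated with Trizol and oligo(dT) beads, reverse transcribed from random primers and run on an Illumina HiSeq2500. The authors deposited FPKM values rounded to 2 decimals, 1 column per library. The submitters' processing notes name Bowtie2 2.2.8 and TopHat2 2.1.1. The quantification tool, genome build and annotation are not given in the sources used here. Symbols, coordinates and lengths came from GENCODE M21 (GRCm38), in which 21848 of 21911 identifiers were found, and this need not be the authors' annotation.

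The fold change was log2((oxalate + 1)/(PBS + 1)), and genes averaging 1 FPKM or more were compared. Reads were estimated from FPKM, the mean length of coding transcripts and the step of low values in short genes with 1 transcript (41 PBS and 37 oxalate values). Members, lists and tests were chosen with earlier results of these data known. The naming rule covered all members, the most abundant gene of each list, list genes that differ at least 1.5-fold (none did), genes overlapping a member, and Il1b, Il6 and Tnf. Prkar2b, Cebpb, Ppid, Il1a, the cell type markers and the pseudogene copies of Ptges3 are named outside this rule. A gene that this rule covers is left out of the report. The length alternative for Ptgs2 and the comparison of genes under 1 FPKM were added after the values were seen. Scripts were tested on simulated data. The software was scipy 1.17.1, pandas 2.3.3, numpy 2.4.6 and matplotlib 3.10.9 under Python 3.11.15.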

Additional observations from a re-analysis of the deposited data

How the results depend on the processing

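No paired analysis was possible because there is 1 library per condition, and for the same reason no replicate could be left out. All 30 member values kept their sign under pseudocounts of 0.1 and 0.001 and a rescaling of the oxalate values. A pseudocount cannot change a sign, members at 0 FPKM in both libraries cannot move, and the rescaling divisor was only 1.0005. The kept signs therefore say nothing of robustness. Under these settings, values of members above 0 FPKM moved by less than 0.5 times the width of their counting interval. The count of members that differ 2-fold stayed at 0 with these settings, over all genes listed and at a mean FPKM of at least 5. At 1.5-fold 204 genes in all differed in place of 67. At 1.2-fold 1 member (Ptges3), 3 raised and 2 lowered pathway genes and 1021 genes in all did, by the construction of a lower threshold. The medians of the members and of all pathway genes moved by less than 0.05 under the alternatives run, and those of the single lists were not recomputed. Exon-union lengths changed the width of the counting interval of none of the 7 members above 0 FPKM by more than 1.5 times, but left 0 out of the interval of Ptger4 (-0.76 to -0.078). Depth limits Ptges, Ptger1, Ptger4, Il1b, Tnf and Il6, and the single library per condition limits every difference.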
